A study of Mus musculus with 6 samples.

Results

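The RNA exosome is a barrel-shaped assembly that trims and degrades RNA from the 3′ end in the nucleus and in the cytoplasm. Its 10 subunit genes, Exosc1 to Exosc10, were selected by gene name from the deposited tables, and all 10 were found among the 14667 genes with a value in at least 1 table. They were not chosen blind to the data: Exosc6 was known to be among the largest falls in Cbfa2t2_KO against H3.3WT, so no p-value is given for a subunit in that comparison and none for Exosc6 in any.

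The cells were NE-4C, a p53-deficient mouse line labelled as neural stem cells. In all 3 groups the endogenous H3f3a gene, which encodes the replication-independent histone H3.3, was knocked out, and an HA-tagged H3.3 was stably expressed in its place. Cbfa2t2_KO cells carried tagged wild-type H3.3 and a further knockout of Cbfa2t2, a transcriptional corepressor gene. H3.3K27M cells carried tagged H3.3 with lysine 27 changed to methionine, and H3.3WT cells tagged wild-type H3.3, with no Cbfa2t2 knockout in the labels of either. Each group had 2 poly(A) RNA-seq libraries (n = 2 throughout), and the labels do not say that these came from separate cultures or from how many clones, so a p-value here reflects the scatter of these libraries alone, which may be technical. Levels are in FPKM, the authors' deposited fragment count scaled to transcript length and library size, and changes are differences of log2(FPKM + 1) with their standard error (SE). On that scale the change of a gene with low FPKM comes out too small. The SE is that of the limma fit, which draws each gene's spread toward that of genes of similar level. It can therefore be smaller or larger than the scatter of a gene's own libraries would give. The read depth behind the values is unknown.

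The exosome core has a cap of 3 RNA-binding proteins, encoded by Exosc1, Exosc2 and Exosc3, on a ring of 6 proteins related to the bacterial enzyme RNase PH. The ring proteins pair as Exosc4 with Exosc9, Exosc5 with Exosc8 and Exosc6 with Exosc7, and in mammals the core itself has lost catalytic activity, so degradation is done by the attached nucleases Exosc10, Dis3 and Dis3l. The complex matures ribosomal RNA, clears short-lived promoter transcripts and takes part in mRNA turnover, and inherited variants of human EXOSC3, EXOSC8 and EXOSC9 cause disorders of the cerebellum and motor neurons.

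The locus of Exosc6 limits its values. Exosc6 (ENSMUSG00000109941) is annotated in GENCODE vM21 on GRCm38 chromosome 8, 111056339 to 111057664, forward strand, as 1 transcript of 1 exon with its coding sequence at 111056371 to 111057189. All 1326 of its exon bases lie within exon 21 of a transcript of Aars, the gene of the cytosolic alanyl-tRNA synthetase, which runs from 111055019 to 111057664 on the same strand and ends at the same base. The Aars coding sequence stops at 111055201, so the Exosc6 exon lies in the annotated 3′ UTR of Aars. Reads in this stretch cannot be assigned by position or by strand to either gene, and the Exosc6 level depends on how the authors' software divided them.

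At 4 subunit genes the start region faces the start of a neighbour on the opposite strand, without overlap of the genes. Each such pair shares the DNA between the starts. Exosc4 and Exosc3 are not among these 4, since they overlap Oplah and Dcaf10 on the opposite strand, with outermost annotated starts 618 and 631 bases apart. Exosc8 starts 145 bases from Alg5, Exosc5 182 bases from Bckdha, Exosc1 56 bases from Zdhhc16 and Exosc7 9 bases from Zdhhc3. The stretches between the annotated genes are printed for the first 3, because they show the shared sequence and how much it differs between subunits whose values are set beside those of their neighbours below. They come from RefSeq (GRCm38.p6) and run 5′ to 3′ on the strand of the subunit gene, at chr3:54735394-54735538 on the reverse strand for Exosc8, chr7:25658982-25659163 on the forward strand for Exosc5 and chr19:41933424-41933479 on the reverse strand for Exosc1. Capitals mark the GC box GGGCGG and the CCAAT box on either strand.
Exosc8: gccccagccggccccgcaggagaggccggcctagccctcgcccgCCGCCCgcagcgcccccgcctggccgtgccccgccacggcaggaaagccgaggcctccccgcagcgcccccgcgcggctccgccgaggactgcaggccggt
Exosc5: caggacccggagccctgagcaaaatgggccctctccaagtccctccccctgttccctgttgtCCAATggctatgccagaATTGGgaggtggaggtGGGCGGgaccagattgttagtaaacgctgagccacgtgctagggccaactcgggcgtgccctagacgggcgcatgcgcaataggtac
Exosc1: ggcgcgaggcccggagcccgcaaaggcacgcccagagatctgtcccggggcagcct
The Exosc8 stretch is 83.5% G and C with 1 GC box, the Exosc5 stretch is 61.0% G and C with 1 GC box and 2 CCAAT boxes, and the short Exosc1 stretch is 75.0% G and C with neither. Over windows from 250 bases before to 50 bases after the start, available for 8 of the 10 subunit genes as 9 windows, GGGCGG was present in 6, against 35.6% of all 32817 RefSeq windows. CCAAT was in 3 (37.4% of all), the ETS motif CCGGAAG in the windows of Exosc3 and Exosc10 (8.86% of all) and TATAAA in 0 (13.6% of all). The Exosc3 window, at chr4:45320567-45320866, lies at another start within the annotated gene, far from its outermost start and from Dcaf10. The motifs were searched on both strands, and none of the 4 contains another. A match describes letters only.

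The 10 subunit mRNAs spanned a wide range within each group. In H3.3WT the ratio of the highest to the lowest group mean was 28.8, in H3.3K27M 12.7 and in Cbfa2t2_KO 98.0, where Exosc6 was the lowest. Exosc4 had the highest level in every group. Exosc3 and Exosc10 followed it, then Exosc1 and Exosc2, whose libraries overlapped in each group, and Exosc9 had the lowest mean in H3.3WT and H3.3K27M. In bulk RNA, fewer cells that express a gene and less RNA per cell cannot be told apart. Of the 9 pairs of neighbours in the order of levels, 2 overlapped in Cbfa2t2_KO, 4 in H3.3K27M and 4 in H3.3WT. In Cbfa2t2_KO these were Exosc1 with Exosc2 and Exosc5 with Exosc7, so that the order Exosc4, Exosc10, Exosc3 at the top was free of overlap there.

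**Figure D1:**
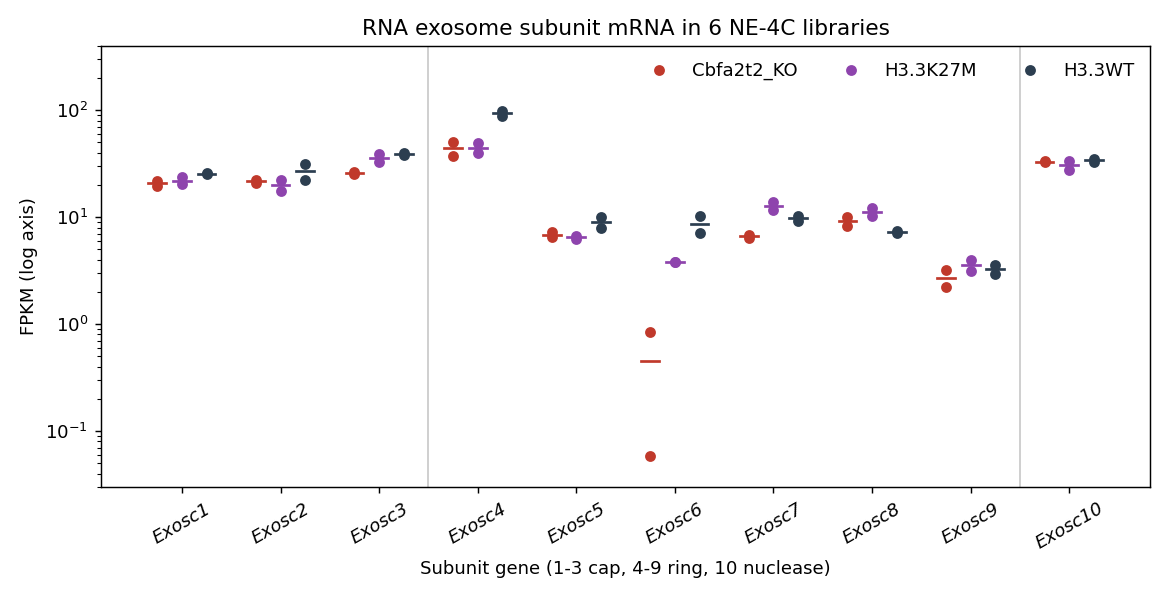
FPKM of the 10 exosome subunit genes on a log axis in Cbfa2t2_KO, H3.3K27M and H3.3WT, with 1 point per library and a line at the group mean. Exosc4 stands highest in every group, at 88.2 and 99.5 FPKM in H3.3WT, and Exosc6 lies at 0.839 and 0.0583 FPKM in the Cbfa2t2_KO libraries.

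Among the cap subunits, Exosc3 was lower in Cbfa2t2_KO and near the H3.3WT level in H3.3K27M. Exosc3 (chromosome 4, 45316613 to 45342732, reverse strand), a cap protein with S1 and KH RNA-binding domains, had 26.7 and 25.5 FPKM in Cbfa2t2_KO, 33.0 and 38.7 in H3.3K27M and 37.9 and 40.0 in H3.3WT. Both Cbfa2t2_KO libraries lay below all others, while an H3.3K27M library fell within the H3.3WT range. The log2 change was −0.56 ± 0.13 (SE) in Cbfa2t2_KO against H3.3WT. In H3.3K27M against H3.3WT it was −0.12 ± 0.17 (limma, adjusted p = 0.622). In H3.3K27M against Cbfa2t2_KO it was 0.44 ± 0.15 (limma, adjusted p = 0.0963), with no overlap between libraries.

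Exosc1 and Exosc2, the other cap genes, differed less. Exosc1 (chromosome 19, 41922292 to 41933423, reverse strand) had 19.6 and 21.8 FPKM in Cbfa2t2_KO, 20.4 and 23.7 in H3.3K27M and 25.3 and 25.7 in H3.3WT. Both lines lay below H3.3WT and overlapped each other, with log2 changes of −0.29 ± 0.14 in Cbfa2t2_KO and −0.21 ± 0.17 in H3.3K27M (limma, adjusted p = 0.380 for H3.3K27M). Exosc2 (chromosome 2, 31670715 to 31681349, forward strand) had 22.3 and 21.1 FPKM in Cbfa2t2_KO, 22.4 and 17.7 in H3.3K27M and 31.5 and 22.1 in H3.3WT. The 2 H3.3WT libraries of Exosc2 lay far apart, and the lower of them fell within the range of both other lines. Its log2 change was −0.27 ± 0.18 in Cbfa2t2_KO and −0.39 ± 0.21 in H3.3K27M (limma, adjusted p = 0.206 for H3.3K27M).

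In the ring, Exosc4 was lower in both lines than in H3.3WT, by about the same amount. Exosc4 (chromosome 15, 76327397 to 76330677, forward strand, up to 3 exons), the partner of Exosc9, had 37.5 and 50.4 FPKM in Cbfa2t2_KO, 40.0 and 49.6 in H3.3K27M and 99.5 and 88.2 in H3.3WT. The 4 libraries of the lines intermingled, and all lay well below both H3.3WT libraries. Group means were 44.0 ± 9.08 FPKM in Cbfa2t2_KO, 44.8 ± 6.76 in H3.3K27M and 93.8 ± 8.03 in H3.3WT (SD, n = 2 each). The log2 change was −1.09 ± 0.17 in Cbfa2t2_KO. In H3.3K27M Exosc4 fell by 1.05 ± 0.18 on the log2 scale (limma, adjusted p = 0.00524, lower in 2 of 2 libraries), and it stayed past the threshold in all 12 alternatives tried. The difference between H3.3K27M and Cbfa2t2_KO was 0.03 ± 0.19 (limma, adjusted p = 0.922), which does not show that the levels were equal.

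Exosc9 (chromosome 3, 36552606 to 36565727, forward strand), the ring partner of Exosc4, had libraries that overlapped across all groups. It had 3.19 and 2.23 FPKM in Cbfa2t2_KO, 3.11 and 3.97 in H3.3K27M and 2.92 and 3.59 in H3.3WT. Its log2 change was −0.21 ± 0.20 in Cbfa2t2_KO and 0.09 ± 0.20 in H3.3K27M (limma, adjusted p = 0.764 for H3.3K27M). The H3.3K27M value turned negative in 3 alternatives. Part of the exon sequence of Exosc9, 10.8% of its bases, is also covered by the cyclin A gene Ccna2 on the opposite strand, and the labels do not give the strand of the libraries. Ccna2 rose in both lines, by 0.87 ± 0.16 in Cbfa2t2_KO (limma, adjusted p = 0.00603) and 1.23 ± 0.16 in H3.3K27M (limma, adjusted p = 0.00226), and its part in the Exosc9 values was not tested. For Exosc4 the opposite-strand gene is Oplah, over 19.8% of the exon bases, and Oplah itself was at 0.234 and 0.240 FPKM in Cbfa2t2_KO, 0.329 and 0.262 in H3.3K27M and 0.661 and 0.530 in H3.3WT. Opposite-strand genes also cover 12.4% of the exon bases of Exosc2 (Gm13427), 5.7% of Exosc5 (Tmem91), 4.0% of Exosc3 (Dcaf10) and 2.1% of Exosc8 (Supt20).

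Exosc5 and its partner Exosc8 lay on opposite sides of H3.3WT in both lines. Exosc5 (chromosome 7, 25659164 to 25671368, forward strand) had 6.50 and 7.21 FPKM in Cbfa2t2_KO, 6.74 and 6.30 in H3.3K27M and 10.1 and 7.89 in H3.3WT. Exosc8 (chromosome 3, 54728678 to 54735393, reverse strand) had 10.0 and 8.34 FPKM in Cbfa2t2_KO, 10.3 and 12.1 in H3.3K27M and 7.14 and 7.50 in H3.3WT. All 4 libraries of the lines lay below H3.3WT for Exosc5 and above it for Exosc8. The log2 changes of Exosc5 were −0.34 ± 0.18 in Cbfa2t2_KO and −0.40 ± 0.19 in H3.3K27M (limma, adjusted p = 0.153 for H3.3K27M). The log2 changes of Exosc8 were 0.29 ± 0.17 in Cbfa2t2_KO and 0.55 ± 0.18 in H3.3K27M (limma, adjusted p = 0.0543 for H3.3K27M). Exosc8 in H3.3K27M lay just outside the threshold and came inside it, at 0.69 (limma, adjusted p = 0.0282), under median-of-ratios scaling. It was also called with a minimum of 5 FPKM, with quantile normalization and in a fit of all 6 libraries. After each library was corrected for its trend on exon number, transcript length and GC content (the structure correction), Exosc8 was at 0.03 in Cbfa2t2_KO and 0.30 in H3.3K27M (limma, adjusted p = 0.118 for H3.3K27M).

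Exosc6 was the subunit whose values varied most. It had 0.839 and 0.0583 FPKM in Cbfa2t2_KO, 3.77 and 3.78 in H3.3K27M and 7.08 and 10.3 in H3.3WT, so that the 3 groups did not overlap and the 2 Cbfa2t2_KO libraries differed widely from each other. The mean in Cbfa2t2_KO was 0.449 ± 0.55 FPKM, against 8.70 ± 2.3 in H3.3WT (SD, n = 2 each), 0.0516 of the H3.3WT mean. The log2 change was −2.78 ± 0.29 in Cbfa2t2_KO against H3.3WT, −1.0 ± 0.22 in H3.3K27M against H3.3WT and 1.78 ± 0.27 in H3.3K27M against Cbfa2t2_KO. With a pseudocount of 0.1 in place of 1 the first of these became −4.49 and the last 3.33. Exosc6 passed the minimum of 1 FPKM in the Cbfa2t2_KO comparison only through H3.3WT.

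Aars, whose last exon holds Exosc6, also fell in both lines, without a difference between them that passed the test. Aars had 97.4 and 104 FPKM in Cbfa2t2_KO, 113 and 97.5 in H3.3K27M and 270 and 257 in H3.3WT. It changed by −1.38 ± 0.13 in Cbfa2t2_KO (limma, adjusted p = 0.000711) and −1.32 ± 0.17 in H3.3K27M (limma, adjusted p = 0.00223), with 0.06 between H3.3K27M and Cbfa2t2_KO (limma, adjusted p = 0.830). As a percentage of the Aars level, Exosc6 stood at 0.861 and 0.0560 in Cbfa2t2_KO, 3.35 and 3.88 in H3.3K27M and 2.63 and 4.01 in H3.3WT. On this ratio the H3.3K27M libraries lay within the H3.3WT range and the Cbfa2t2_KO libraries below it. Whether the division of reads between both genes differed between the libraries was not tested.

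**Figure D2:**
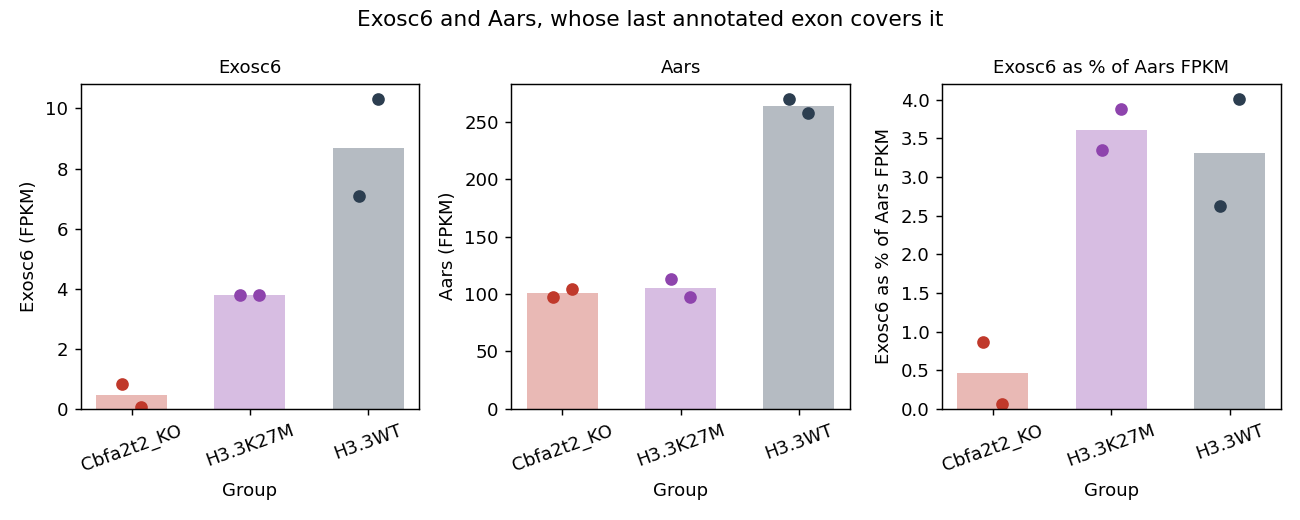
FPKM of Exosc6 and of Aars, and Exosc6 as a percentage of Aars, by group, with 1 point per library, bars at the group mean and axes that start at 0. Aars is at 97.4 to 113 FPKM in both lines and 257 and 270 in H3.3WT, while the ratio is below 1% in Cbfa2t2_KO and between 2.63 and 4.01% in the other libraries.

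Over the 6 libraries, the 5 genes whose log2 values were most like those of Exosc6, of 11600 compared, were Pus7l, Cyp2b23, Twistnb and Plekhf2 (Pearson r = 0.997 each) and Phospho2 (0.996). With 6 libraries in 3 groups such values describe the order of the groups. Pus7l, for example, had 1.42 and 1.04 FPKM in Cbfa2t2_KO, 2.33 and 2.30 in H3.3K27M and 3.17 and 3.39 in H3.3WT, which is the same order of groups over a much narrower range.

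Exosc7, the ring partner of Exosc6, was lowest in Cbfa2t2_KO and highest in H3.3K27M. Exosc7 (chromosome 9, 123113215 to 123136129, forward strand) had 6.33 and 6.87 FPKM in Cbfa2t2_KO, 11.6 and 13.8 in H3.3K27M and 10.3 and 9.24 in H3.3WT. No 2 groups overlapped. It rose by 0.85 ± 0.17 in H3.3K27M against Cbfa2t2_KO (limma, adjusted p = 0.0271, higher in 2 of 2 libraries). The call was lost without Cbfa2t2_KO library 1 (adjusted p = 0.0889), without Cbfa2t2_KO library 2 (0.154) or without H3.3K27M library 2 (0.101). Against H3.3WT the log2 change was −0.50 ± 0.16 in Cbfa2t2_KO and 0.35 ± 0.18 in H3.3K27M (limma, adjusted p = 0.185 for H3.3K27M).

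The nuclease gene Exosc10 had libraries that overlapped across all groups. Exosc10 (chromosome 4, 148558429 to 148582401, forward strand, up to 25 exons) encodes the exonuclease of the nuclear exosome. It had 32.6 and 33.7 FPKM in Cbfa2t2_KO, 33.6 and 27.9 in H3.3K27M and 32.9 and 35.2 in H3.3WT. Its log2 changes were −0.03 ± 0.13 in Cbfa2t2_KO and −0.15 ± 0.17 in H3.3K27M (limma, adjusted p = 0.555 for H3.3K27M), and both turned positive under median-of-ratios scaling.

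Counted together, 4 of the 10 subunit genes (Exosc3, Exosc4, Exosc6 and Exosc7) were past the threshold and lower in Cbfa2t2_KO against H3.3WT, beside 21.5% of all 11626 genes tested that were called lower, 13.1% called higher and 34.6% called in either direction. Since this contrast was used to choose the genes, nothing is read from the count. In H3.3K27M against H3.3WT, 2 of 10 were called, Exosc4 and Exosc6, both lower, beside 17.8% of 11623 genes called lower, 8.42% called higher and 26.2% called in either direction. In H3.3K27M against Cbfa2t2_KO, 2 of 10 were called, Exosc6 and Exosc7, both higher, beside 3.12% of 11601 genes called higher, 4.68% called lower and 7.8% called in either direction. The Exosc6 call there rests on the Cbfa2t2_KO libraries in which its low level was already known, so nothing is read from it, which leaves 1 of the other 9, Exosc7. The count of 2 of 10 for H3.3K27M against H3.3WT lay near the share of all genes called there, 26.2%. Its Exosc6 call shares the H3.3WT libraries in which the high level of Exosc6 was already known. Nothing is read from that call either, which leaves 1 of the other 9, Exosc4. Without 1 library the count for Cbfa2t2_KO against H3.3WT was 2 to 3, with Exosc3 lost in 3 of the 4 cases and Exosc7 in all 4. Exosc6 was not called in H3.3K27M against H3.3WT without H3.3K27M library 2 or H3.3WT library 2, nor in H3.3K27M against Cbfa2t2_KO without H3.3K27M library 2 or Cbfa2t2_KO library 2. The 3 comparisons share libraries, so their values for a subunit are not independent of each other. The remaining calls of Exosc4 and Exosc7 thus also reuse libraries of the contrast that was used to choose the genes.

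Libraries of Cbfa2t2_KO and H3.3WT did not overlap for 7 subunits, 6 lower and Exosc8 higher. Of all genes, 42% were lower without overlap, 28.5% higher and 70.4% either, and nothing is read from the subunits' count here. Those of H3.3K27M and H3.3WT did not overlap for 6 subunits, 4 lower and 2 higher, beside 41.3% of all genes lower, 25.1% higher and 66.3% either. Those of H3.3K27M and Cbfa2t2_KO did not overlap for Exosc3, Exosc6, Exosc7 and Exosc8, all higher in H3.3K27M, beside 26.7% of all genes higher, 31.5% lower and 58.2% either. Exosc6 enters both of these H3.3K27M counts through libraries in which its level was already known, so nothing is read from it there. The median log2 change of the 10 subunits was −0.32 in Cbfa2t2_KO, beside −0.11 over all genes, and −0.18 in H3.3K27M, beside −0.12 over all genes. Median-of-ratios scaling moved the median of all genes to 0.00 in Cbfa2t2_KO and 0.01 in H3.3K27M. It also moved the share of calls that were higher to 50.6% in Cbfa2t2_KO, against 37.9% as deposited, and to 49.3% in H3.3K27M, against 32.1%. Under it the subunits below 0 numbered 8 in place of 9 in Cbfa2t2_KO and 5 in place of 7 in H3.3K27M, while Exosc4 was still called lower in H3.3K27M.

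**Figure D3:**
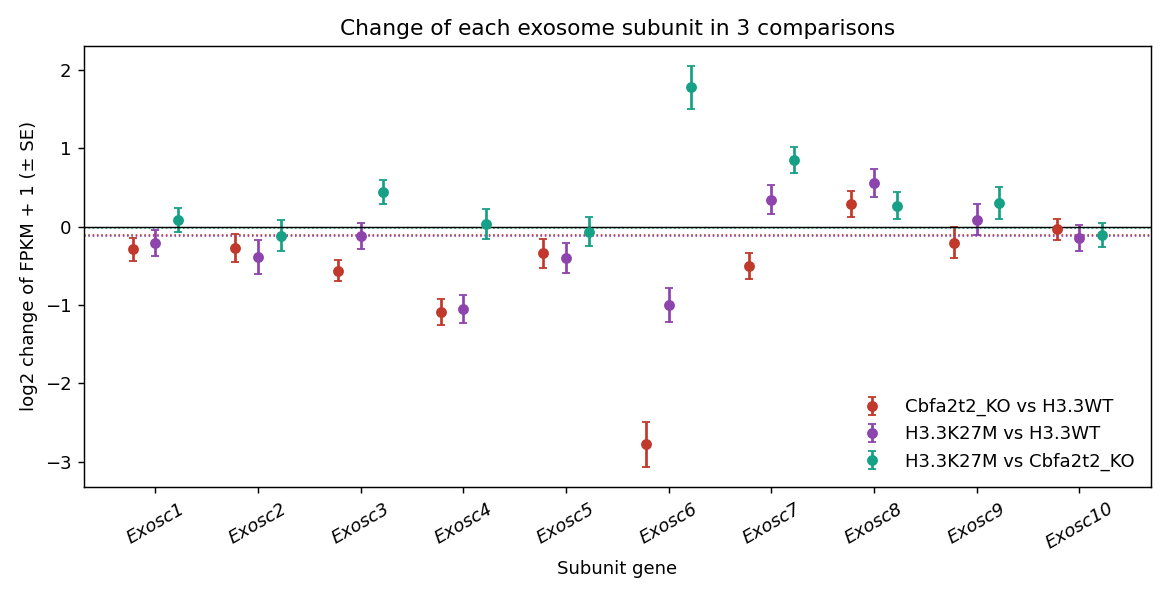
Difference of log2(FPKM + 1) of the 10 subunit genes, with bars of 1 SE, in Cbfa2t2_KO against H3.3WT, H3.3K27M against H3.3WT and H3.3K27M against Cbfa2t2_KO, with dotted lines at the median of all genes in each comparison. Exosc4 lies near −1 in both lines, and Exosc6 at −2.78 and −1.0, while Exosc7 is below 0 in Cbfa2t2_KO and above 0 in H3.3K27M.

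Gene structure moved with these values. Exosc6 is a single-exon gene with 64.9% G and C, and Exosc4 has at most 3 exons. Protein-coding genes with 1 exon had a median log2 change of −0.41 in Cbfa2t2_KO and −0.51 in H3.3K27M, and those with up to 3 exons −0.40 and −0.46. Those with at least 6 exons had −0.07 in Cbfa2t2_KO and −0.10 in H3.3K27M. After each library was corrected for its trend on exon number, transcript length and GC content, Exosc4 was at −0.95 in Cbfa2t2_KO and at −0.80 in H3.3K27M (limma, adjusted p = 0.00647 for H3.3K27M), and Exosc6 at −2.60 and −0.68. Exosc1 was called lower in both lines after this correction, at −0.45 in Cbfa2t2_KO and −0.58 in H3.3K27M (limma, adjusted p = 0.0135 for H3.3K27M). Under it, 42% of all genes were called in Cbfa2t2_KO and 31.7% in H3.3K27M.

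The subunit levels summed to 166 and 177 FPKM in Cbfa2t2_KO, 185 and 198 in H3.3K27M and 265 and 250 in H3.3WT. Without Exosc4 the sums were 128 and 127 FPKM in Cbfa2t2_KO, 145 and 148 in H3.3K27M and 165 and 161 in H3.3WT. Exosc4 thus made up a large part of the difference between the sums. It held 22.7 and 28.4% of the sum in Cbfa2t2_KO, 21.6 and 25.1% in H3.3K27M and 37.6 and 35.3% in H3.3WT. The share of Exosc8 was 6.05 and 4.70% in Cbfa2t2_KO, 5.59 and 6.14% in H3.3K27M and 2.70 and 3.01% in H3.3WT. The share of Exosc10, whose groups overlapped in level, was 19.7 and 19.0% in Cbfa2t2_KO, 18.2 and 14.1% in H3.3K27M and 12.4 and 14.1% in H3.3WT. Shares of one sum depend on each other, and they describe mRNA and not the protein complex.

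**Figure D4:**
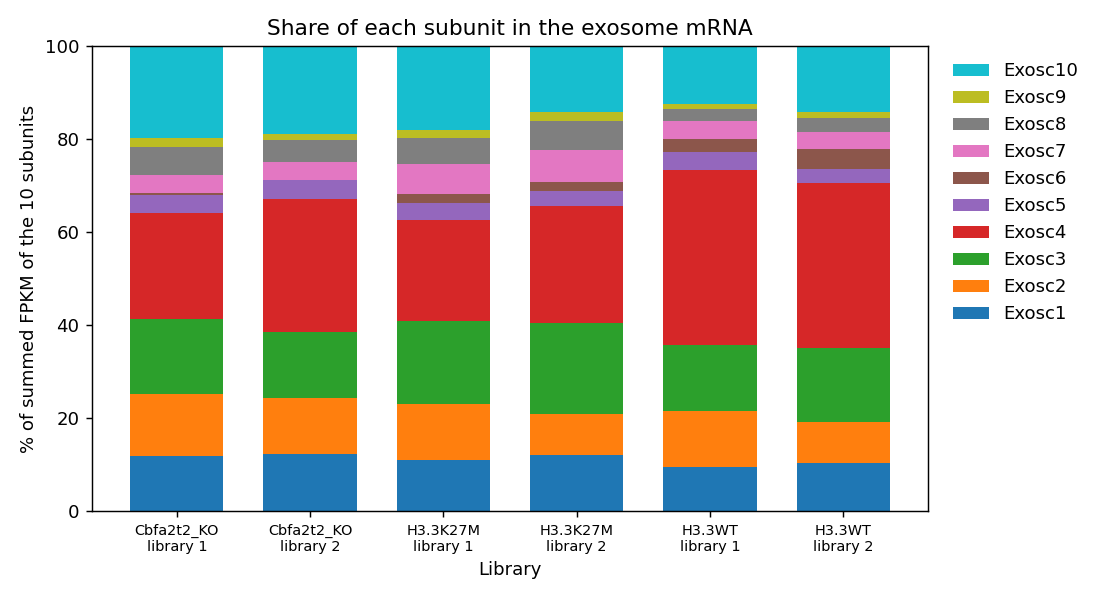
Share of each subunit in the summed FPKM of the 10 subunit genes, in percent, with 1 stacked bar per library for Cbfa2t2_KO, H3.3K27M and H3.3WT. The Exosc4 part is 21.6 to 28.4% in the 4 libraries of the lines and 35.3 and 37.6% in H3.3WT.

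The genes that share a start region with a subunit without overlapping it had their own patterns, given here beside those of the subunits. Alg5, a glucosyltransferase of N-glycan assembly, had 11.7 FPKM in both Cbfa2t2_KO libraries, 7.93 and 7.29 in H3.3K27M and 6.08 and 5.26 in H3.3WT. Alg5 rose by 0.93 ± 0.16 in Cbfa2t2_KO (limma, adjusted p = 0.00466), and its change of 0.37 ± 0.18 in H3.3K27M did not pass (adjusted p = 0.169). Exosc8, across the shared start from Alg5, had its higher mean in H3.3K27M, at 11.2 FPKM, against 9.18 in Cbfa2t2_KO, where Alg5 had its higher mean in Cbfa2t2_KO. Bckdha, a subunit of branched-chain ketoacid dehydrogenase and the neighbour of Exosc5, was at 0.11 in Cbfa2t2_KO (limma, adjusted p = 0.620) and fell by 0.62 ± 0.16 in H3.3K27M (limma, adjusted p = 0.0225). The Bckdha call was lost under median-of-ratios scaling and without H3.3K27M library 2 or either H3.3WT library, with adjusted p of up to 0.13. Zdhhc16 and Zdhhc3, palmitoyltransferase genes beside Exosc1 and Exosc7, were called in none of the 3 comparisons. Of the other genes within 5 kb that overlap no subunit gene, 2 were called, both higher in Cbfa2t2_KO and just inside the threshold. Pgam1, a glycolytic enzyme gene next to Exosc1, was at 0.50 ± 0.16 (limma, adjusted p = 0.0462), and Trmt10b, a tRNA methyltransferase gene next to Exosc3, at 0.54 ± 0.18 (limma, adjusted p = 0.0486). Both calls were lost without any 1 of the 4 libraries and in a fit of all 6, that of Pgam1 also with quantile normalization and that of Trmt10b with no minimum FPKM and after the structure correction.

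The nucleases and direct cofactors of the exosome were called in 0 of 5 cases in each comparison by limma. Of all genes, 34.6% were called in Cbfa2t2_KO against H3.3WT, 26.2% in H3.3K27M against H3.3WT and 7.8% in H3.3K27M against Cbfa2t2_KO. At an unadjusted limma p under 0.05 there were 2 of the 5 in the first of these comparisons, 0 in H3.3K27M against H3.3WT and 2 in H3.3K27M against Cbfa2t2_KO. Dis3, the main catalytic subunit, had 2.62 and 1.97 FPKM in Cbfa2t2_KO, 3.33 and 2.63 in H3.3K27M and 3.31 and 3.80 in H3.3WT. Both Cbfa2t2_KO libraries lay below H3.3WT, with a log2 change of −0.47 ± 0.18 (limma, adjusted p = 0.0833), and H3.3K27M was at −0.20 ± 0.20 (adjusted p = 0.479). Its cytoplasmic relative Dis3l was at −0.42 in Cbfa2t2_KO (limma, adjusted p = 0.0934) and −0.33 in H3.3K27M (limma, adjusted p = 0.257). The cofactors C1d and Mphosph6 and the helicase Skiv2l2, also called Mtr4, were between −0.46 and 0.04 in Cbfa2t2_KO and between 0.09 and 0.26 in H3.3K27M, and none of them passed the test. After the correction for exon number, length and GC content, Dis3, Dis3l and Skiv2l2 passed as lower and C1d as higher in Cbfa2t2_KO. Under that correction 42% of all genes were called in either direction there.

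In the wider lists of RNA decay genes, which hold 74 genes of which 71 were tested, 13 fell and 1 rose in Cbfa2t2_KO against H3.3WT, 19.7% of those tested beside 34.6% of all genes. In H3.3K27M against H3.3WT 9 fell and 1 rose, 14.1% beside 26.2% of all genes. In H3.3K27M against Cbfa2t2_KO 1 of 71 was called, beside 7.8% of all genes. The median log2 change of the 71 genes was −0.29 in Cbfa2t2_KO and −0.17 in H3.3K27M. These lists include the 5 nucleases and cofactors above and leave out the 10 subunits. With 1 library left out the calls numbered 5 to 11 in Cbfa2t2_KO and 3 to 14 in H3.3K27M, so the shares depend on which libraries enter. After the correction for exon number, length and GC content 34 of 71 were called in Cbfa2t2_KO, 47.9% beside 42% of all genes, and 22 of 71 in H3.3K27M, 31% beside 31.7% of all genes. In H3.3K27M against Cbfa2t2_KO the correction gave 3 of 71, 4.23% beside 12.5% of all genes. The decay genes thus lay below the share of all genes as deposited in each comparison. After this correction they lay above or near it in the comparisons with H3.3WT, and still below it between the lines.

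Of the nuclear adaptors that bring RNA to the exosome, 3 of 16 fell in Cbfa2t2_KO (Papd5, Zc3h3 and Zc3h18) and 2 of 16 in H3.3K27M (Zc3h3 and Zc3h18). That is 18.8% in Cbfa2t2_KO, beside 21.5% of all genes called lower, and 12.5% in H3.3K27M, beside 17.8%. Zc3h18, which links the cap-binding complex to exosome adaptors, had 10.8 ± 1.1 FPKM in Cbfa2t2_KO, 10.8 ± 2.3 in H3.3K27M and 20.9 ± 1.9 in H3.3WT (SD, n = 2 each), with log2 changes of −0.89 in Cbfa2t2_KO (limma, adjusted p = 0.00492) and −0.90 for H3.3K27M (adjusted p = 0.0128). Zc3h18 lost its call in H3.3K27M without H3.3K27M library 2 or either H3.3WT library, as did Zc3h3, which also lost its call in Cbfa2t2_KO without any 1 of the 4 libraries. Zc3h3 lost it with quantile normalization in both lines, and with median-of-ratios scaling in H3.3K27M as well. Among 5 genes of the cytoplasmic Ski complex and its ribosome rescue partners, 1 fell in each line, the rescue factor Pelo (20% of the list). Pelo had 21.2 and 25.2 FPKM in Cbfa2t2_KO, 14.1 and 21.6 in H3.3K27M and 60.1 and 64.9 in H3.3WT, so that all 4 libraries of the lines lay below H3.3WT. The log2 change of Pelo was −1.40 ± 0.14 in Cbfa2t2_KO (limma, adjusted p = 0.000898) and −1.78 ± 0.21 in H3.3K27M (limma, adjusted p = 0.00173), and it was called in all 12 alternatives of each.

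Of 13 genes of the deadenylase list, 3 fell in Cbfa2t2_KO (Cnot4, Cnot10 and Cnot11) and 1 rose, Parn, at 0.58 ± 0.16 (limma, adjusted p = 0.0249). The list holds enzymes that shorten poly(A) tails and other genes of their complexes. The 3 that fell do not encode such an enzyme. In H3.3K27M 1 of 13 fell, Cnot4. These were 30.8% of the list in Cbfa2t2_KO and 7.7% in H3.3K27M, beside 34.6% and 26.2% of all genes called in either direction in the same comparisons. Of 18 decapping and 5′ decay genes, 3 fell in Cbfa2t2_KO (Dcp1a, Edc3 and Lsm1). In H3.3K27M Edc3, a scaffold of decapping, fell by 0.84 ± 0.16 (limma, adjusted p = 0.00865), and the nuclear 5′ exonuclease gene Xrn2 rose by 0.80 ± 0.17 (limma, adjusted p = 0.0129). The called share of this list was 16.7% in Cbfa2t2_KO and 11.1% in H3.3K27M. Of 10 nonsense-mediated decay genes, 3 fell in Cbfa2t2_KO (Upf1, Upf2 and Smg8) and 3 in H3.3K27M (Upf1, Smg6 and Smg8), 30% of the list in each, beside 21.5% of all genes called lower in Cbfa2t2_KO and 17.8% in H3.3K27M. The endonuclease gene Smg6 had 13.1 ± 1.4 FPKM in Cbfa2t2_KO, 6.75 ± 0.60 in H3.3K27M and 14.9 ± 0.38 in H3.3WT (SD, n = 2 each), and was the 1 decay gene called between H3.3K27M and Cbfa2t2_KO, at −0.86 ± 0.17 (limma, adjusted p = 0.0236). Of 4 uridylation genes 0 were called in Cbfa2t2_KO by limma (1 at an unadjusted p under 0.05), and Tut1, a terminal uridylyltransferase gene, was just inside the threshold in H3.3K27M at −0.52 ± 0.17, 1 of 4 or 25% of the list, a call lost in 9 of 12 alternatives. Smg8 was called in both lines, and Edc3 and Lsm1 in Cbfa2t2_KO, in all 12 alternatives. The calls of Papd5, Cnot4, Cnot10, Cnot11, Parn, Dcp1a, Upf1 and Upf2 in Cbfa2t2_KO were lost without 3 or more of the 4 libraries in turn. Those of Cnot10 and Dcp1a were also lost with quantile normalization, those of Cnot11 and Dcp1a with median-of-ratios scaling, that of Dcp1a in a fit of all 6 libraries and that of Parn after the structure correction, at 0.32 (limma, adjusted p = 0.0757). In H3.3K27M those of Cnot4 and Upf1 were lost without H3.3K27M library 2 or either H3.3WT library, and those of Edc3 and Xrn2 without either H3.3WT library. That of Cnot4 in H3.3K27M was also lost with median-of-ratios scaling and with quantile normalization. The Smg6 call between the lines was lost without either Cbfa2t2_KO library or H3.3K27M library 2.

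**Figure D5:**
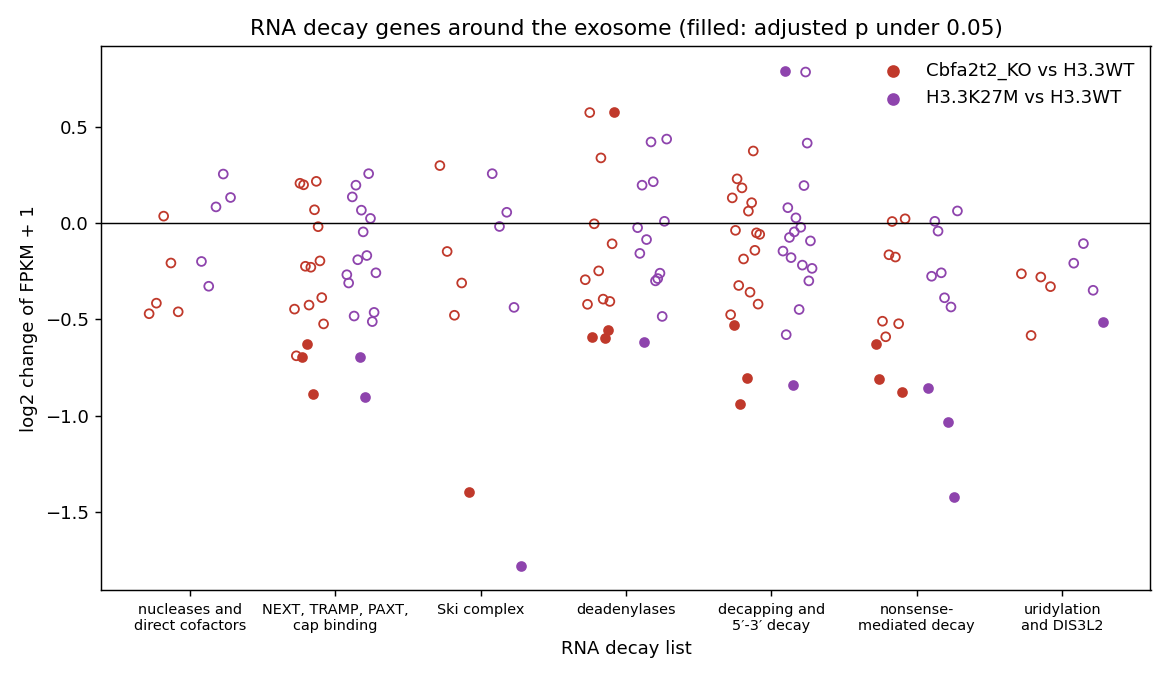
Difference of log2(FPKM + 1) of the genes in each of 7 RNA decay lists, in Cbfa2t2_KO against H3.3WT and H3.3K27M against H3.3WT, with 1 point per gene, filled where the adjusted p is under 0.05. Open points lie on both sides of 0 in most lists, and the lowest filled points are Pelo at −1.40 in Cbfa2t2_KO and −1.78 in H3.3K27M.

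The targeted gene and the cell type labels were checked in the same tables. Cbfa2t2 had 1.02 and 0.769 FPKM in Cbfa2t2_KO, 2.02 and 0.856 in H3.3K27M and 1.38 and 1.35 in H3.3WT, with a log2 change of −0.32 ± 0.16 in Cbfa2t2_KO (limma, adjusted p = 0.153), so the RNA level alone does not separate the knockout. H3f3a, knocked out in all 3 groups, still had a level in each, with 82.1 and 66.3 FPKM in Cbfa2t2_KO, 77.3 and 66.8 in H3.3K27M and 131 and 181 in H3.3WT. The tables do not separate endogenous H3f3a RNA from that of the tagged H3.3. All 4 libraries of the lines lay below H3.3WT, with log2 changes of −1.05 ± 0.19 in Cbfa2t2_KO (limma, adjusted p = 0.00501) and −1.09 ± 0.20 in H3.3K27M (limma, adjusted p = 0.00708, and 0.0675 without H3.3WT library 2). Exosc4, Exosc6 and Aars were lower in the same libraries, and the part of the H3f3a level in the subunit values was not tested. Of 12 neural stem and progenitor markers 10 were in a table, without Sox1 and Fabp7, and their summed level was 134 to 139 FPKM in Cbfa2t2_KO, 158 to 172 in H3.3K27M and 205 to 214 in H3.3WT. Pax6 was at or below 0.926 FPKM in every library, while Pou5f1, a pluripotency marker, was at 919 FPKM or more in all. Of the marker lists of other cell types, 4 of 5 epithelial markers were found, with sums of 198 to 213 FPKM in Cbfa2t2_KO, 182 to 183 in H3.3K27M and 94.2 to 122 in H3.3WT. Epcam made up most of that sum, with means of 157 FPKM in Cbfa2t2_KO, 128 in H3.3K27M and 66.5 in H3.3WT, and Krt8 and Krt18 were also higher in the lines. Cdh1 had means of 36.0, 46.9 and 39.5 FPKM in the same order, and each line overlapped H3.3WT. For neurons 4 of 7 were found, with 135 to 152 FPKM in Cbfa2t2_KO, 76.8 to 81.5 in H3.3K27M and 76.7 to 77.9 in H3.3WT, and Map2, Dcx and Snap25 were in neither table. Tubb3 made up most of that sum, with 123 and 139 FPKM in Cbfa2t2_KO, 68.4 and 71.6 in H3.3K27M and 68.9 and 67.4 in H3.3WT, while the neuronal marker Rbfox3 was lower in both lines, with 1.18 and 1.14 FPKM in Cbfa2t2_KO, 0.702 and 0.571 in H3.3K27M and 1.83 and 1.64 in H3.3WT. Within the progenitor list, Vim was higher in the lines although the sum was lower, with 27.3 and 26.5 FPKM in Cbfa2t2_KO, 34.5 and 41.8 in H3.3K27M and 10.3 and 12.2 in H3.3WT, and Prom1 likewise, with 5.78 to 7.61 FPKM in the lines and 2.84 and 3.29 in H3.3WT. Astrocyte markers (3 of 6 found, without Gfap, Aqp4 and S100b) summed to 27.9 to 55.0 FPKM over the libraries. Aldoc made up most of that sum, with means of 42.6 FPKM in Cbfa2t2_KO, 34.4 in H3.3K27M and 18.7 in H3.3WT. Aldh1l1 was also higher in the lines, while Slc1a3 was lower, with means of 4.31, 7.23 and 11.65 FPKM in the same order. Mesenchymal markers (5 of 5) summed to 15.9 to 30.6 FPKM and pluripotency markers (4 of 5) to 927 to 1364. The mesenchymal marker Col1a1 had no value in H3.3K27M and counted as 0 there. The pluripotency sum was almost all Pou5f1. Nanog had means of 2.96 FPKM in Cbfa2t2_KO, 9.23 in H3.3K27M and 6.08 in H3.3WT, and Esrrb 0.753, 0.861 and 1.68 in the same order. Summed levels of oligodendrocyte, endothelial and leukocyte markers were at or below 4.37 FPKM in every library. Several of these sums differed between the groups, and their part in the subunit values was not tested.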

How the data were processed

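Poly(A) RNA-seq of 6 NE-4C libraries, 2 in each of 3 groups, was used as the authors deposited it, as FPKM per gene in 2 tables of 14431 genes (Cbfa2t2_KO with H3.3WT) and 14318 genes (H3.3K27M with H3.3WT). The H3.3WT columns were identical for all 14082 shared genes. Per the submitters' processing notes, Trim Galore, HISAT2, StringTie, DESeq and GRCm38 were used, with no versions, and per the labels' protocols RNA was captured on oligo(dT) and primed at random. The strand of the libraries and the annotation release are not given in the sources used here. Every gene reached 0.500 FPKM in at least 1 library of its table, so lower genes are not seen. Low values did not fall on whole multiples of a step (at most 0.374 of them, with a tolerance of 0.1), so the depth could not be recovered and counting intervals are not given. The FPKM of a library summed to between 363586 and 419389.

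Columns were matched to groups by name, and the H3.3K27M columns are named with the letter M alone. Library numbers follow the column order within a group and pair no libraries. Genes that averaged 1 FPKM or more over the fitted libraries entered limma 3.58.1 (R 4.3.3; eBayes, trended prior) as log2(FPKM + 1), with Benjamini-Hochberg adjustment over all genes and a threshold of 0.05. The comparisons with H3.3WT used the 4 libraries concerned, and the comparison of both lines used all 6. An exact two-sided permutation test of 2 against 2 libraries cannot go below 0.333. The fits were tested on simulated data. The subunits, the lists of RNA decay and marker genes and the tests were chosen with earlier results of these data known.

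All 10 subunits were named, with those genes within 5 kb that were called, share a start or cover a subunit's exons (the other neighbours are not printed), the 5 genes most correlated with Exosc6, Cbfa2t2 (H3f3a was added after its values were seen), the nucleases and cofactors, and the RNA decay genes at the ends of their list, of which the text prints those called. The other called decay genes were named after their values were seen. Coordinates and exons are from GENCODE vM21 (14646 of 14667 IDs matched), sequences from RefSeq. Python 3.11.15 with matplotlib 3.10.9 drew the figures. Alternatives were a pseudocount of 0.1, a minimum of 5 FPKM or none, quantile normalization, median-of-ratios scaling, robust eBayes, a correction for exon number, transcript length and GC content, another set of libraries in the fit, and leaving out each library.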

Additional observations from a re-analysis of the deposited data

How the results depend on the processing

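No paired analysis was possible because the labels give no replicate numbers that the groups share. Exosc4 was lower and past the threshold in H3.3K27M against H3.3WT in all 12 alternatives. In Cbfa2t2_KO against H3.3WT, the number of called subunits was 4 as reported, 2 with median-of-ratios scaling, 5 after the correction for exon number, transcript length and GC content (the structure correction) and 2 to 3 when a library was left out. Exosc3 lost its call without any 1 library except H3.3WT library 1, and Exosc7 without any of the 4. In H3.3K27M against H3.3WT it was 2, and 3 with a minimum of 5 FPKM, median-of-ratios scaling, quantile normalization or a fit of all 6 libraries, which added Exosc8 as higher, and 3 after the structure correction, which added Exosc1 as lower. It was 1 to 2 with a library left out, since Exosc6 was lost without H3.3K27M library 2 or H3.3WT library 2. In H3.3K27M against Cbfa2t2_KO it was 2, 1 with a minimum of 5 FPKM and 0 to 2 with a library left out. RNA decay genes called numbered 14, 10 and 1 in the same 3 comparisons. The structure correction gave 34, 22 and 3, median-of-ratios scaling gave 3 and quantile normalization 2 in the third, and leaving out a library gave 5 to 11, 3 to 14 and 0 to 1. Over all genes, the calls of 4028, 3049 and 905 became 1915 to 3038, 1007 to 2790 and 29 to 786 with a library left out, the third 1453 after the structure correction and 554 in a fit of 4 libraries. Leaving out a library removes samples and leaves a lone library assumed to vary like the others, and the cause of the other shifts was not tested. Differences that were not called changed sign as follows. In H3.3K27M against H3.3WT, median-of-ratios scaling and quantile normalization gave 0.032 and 0.011 for Exosc3 and 0.0056 and 0.011 for Exosc10, and Exosc9 was at −0.39 after the structure correction and between −0.045 and 0.23 with a library left out. In H3.3K27M against Cbfa2t2_KO, the structure correction gave −0.13 for Exosc1, 0.059 for Exosc5 and 0.023 for Exosc10. There, leaving out a library gave −0.019 to 0.19 for Exosc1, −0.28 to 0.047 for Exosc2, −0.17 to 0.24 for Exosc4, −0.13 to 0.0029 for Exosc5 and −0.24 to 0.020 for Exosc10. Among the other genes named, leaving out a library gave −0.084 to 0.30 for Bckdha and −0.20 to 0.28 for C1d in Cbfa2t2_KO, −0.15 to 0.33 for C1d and −0.014 to 0.28 for Skiv2l2 in H3.3K27M against H3.3WT, and −0.045 to 0.16 for Aars between the lines, and the structure correction gave −0.021 for Mphosph6 and −0.22 for Skiv2l2 in H3.3K27M. In Cbfa2t2_KO against H3.3WT, Exosc3 lost its call with median-of-ratios scaling. Exosc7 lost it there with that scaling, with quantile normalization and in a fit of all 6 libraries. The count of called subunits was 3 with quantile normalization, in that fit and with a minimum of 5 FPKM, where 8 were tested, without Exosc6. Exosc1 was the call that the structure correction added. The other called genes that lost a call under an alternative are named above.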
